A study of Oryza sativa Japonica Group with 8 samples.

Results

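The FERONIA-like receptor kinases of rice were followed in pistils as 3 loci of the 38726 features in the deposited count table. They were chosen by RAP locus identifier: Os03g0333200 on chromosome 3, selected under the names FLR1 and DRUF1, Os01g0769700 on chromosome 1, selected as FLR2, and Os06g0334300 on chromosome 6, selected under the name RUPO. The chromosome is read from the identifier. The count table carries no names for nuclear loci, so the names come from the selection alone, and no sequence of these loci was used here.

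All 8 libraries came from untreated wild-type plants of the japonica cultivar Nipponbare at heading, the stage when the panicle emerges. Bulk polyA RNA of sorted pistil nuclei (n = 2) was set against RNA of whole cells from the upper part (n = 3) and from the lower part (n = 3) of dissected pistils. A pistil, the seed-bearing organ at the centre of the flower, has stigma and style above the ovary; where it was divided is not stated in the labels. Nuclei had been stained with propidium iodide and purified by fluorescence-activated sorting. Their libraries were made with a SMART-Seq kit and those of both parts with a strand-specific NEBNext kit, so for every comparison with nuclei the effects of kit and compartment cannot be told apart. The labels do not say whether replicates came from separate plants, and p-values therefore measure the spread between these libraries, which may be technical.

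FERONIA, first described in Arabidopsis, is a receptor kinase of the plasma membrane whose outer region resembles malectin, a sugar-binding protein. In Arabidopsis it binds RALF peptides together with a LORELEI-type partner and signals through Rac/Rop GTPases and NADPH oxidases, which make reactive oxygen. There it is needed in the synergid cells of the ovule, where the pollen tube has to stop and burst, and it also acts in the stigma when pollen arrives. The rice genes FLR1 and FLR2 are known to be required for plant architecture and fertility. RUPO is the name of a rice receptor kinase known for keeping pollen tubes intact and for its contact with potassium transporters.

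Totals were 9268151 and 10857036 counts in nuclei and ran from 24796307 to 35518142 counts in the whole-cell libraries. No pair of libraries was alike, with different counts at 85.4% or more of the features. Carpel and ovule markers, a list of 5 loci compiled from general knowledge, were present in every library, with a lowest count of 423 for any locus. Summed, they reached 1129 and 1754 CPM (counts scaled to 1000000 per library, with library sizes adjusted by the TMM method) in nuclei, 1611 to 2412 CPM in the upper part and 1460 to 1887 CPM in the lower part. A list of 5 pollen markers, compiled in the same way, summed to 5.82 and 13.0 CPM in nuclei, 134 to 466 CPM in the upper part and 3.71 to 241 CPM in the lower part. Within the lower part the pollen sum was 3.71 CPM in replicate 1, 27.8 CPM in replicate 2 and 241 CPM in replicate 3. No pollen marker was at 0 in any library, the lowest count being 2.

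All 3 receptor loci were well covered, with counts from 803 to 9004 per library, and all passed the filter on low counts in both fits. Even the smallest of these counts, that of Os06g0334300 in nuclei replicate 1, gave 71.9 CPM with an exact 95% Poisson interval from 67.1 to 77.1 CPM, which covers counting error only. In each group, the highest and the lowest replicate of every locus lay further apart than such intervals. Levels were compared between groups for each locus and not between loci, because the files give no gene lengths.

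FLR1 (Os03g0333200) had 142 and 444 CPM in nuclei replicates 1 and 2. In the upper part it had 71.7, 270 and 113 CPM in replicates 1, 2 and 3, and in the lower part 61.9, 133 and 64.3 CPM. The means ran in the order nuclei (293 ± 213 CPM, SD, n = 2), upper part (152 ± 104 CPM, SD, n = 3) and lower part (86.3 ± 40.1 CPM, SD, n = 3). By highest over lowest replicate it was the most variable of the 3 loci in the upper part (3.76) and nuclei (3.12), and the least variable in the lower part (2.14, against 2.19 for FLR2 and 2.27 for Os06g0334300). Neither step in that order of means exceeded the spread of the libraries: nuclei replicate 1 lay below upper replicate 2, and lower replicate 2 lay above upper replicates 1 and 3.

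FLR2 (Os01g0769700) stood at 272 and 479 CPM in nuclei replicates 1 and 2. It had 72.6, 139 and 77.3 CPM in upper replicates 1 to 3, against 68.7, 150 and 80.5 CPM in lower replicates 1 to 3. Both nuclei libraries thus lay above all 6 whole-cell libraries, while the ranges of the 2 parts nearly coincided. The means were 376 ± 146 CPM in nuclei (SD, n = 2), 96.2 ± 36.8 CPM over upper libraries and 99.8 ± 44.0 CPM over lower libraries (SD, n = 3 each).

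Os06g0334300 had 71.9 and 184 CPM in nuclei replicates 1 and 2. The upper libraries had 67.7, 121 and 71.3 CPM and the lower libraries 42.5, 96.3 and 54.1 CPM in replicates 1, 2 and 3. Its means also ran from nuclei (128 ± 79.4 CPM, SD, n = 2) through the upper part (86.6 ± 29.6 CPM, SD, n = 3) to the lower part (64.3 ± 28.3 CPM, SD, n = 3). The groups overlapped at each step.

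**Figure D1:**
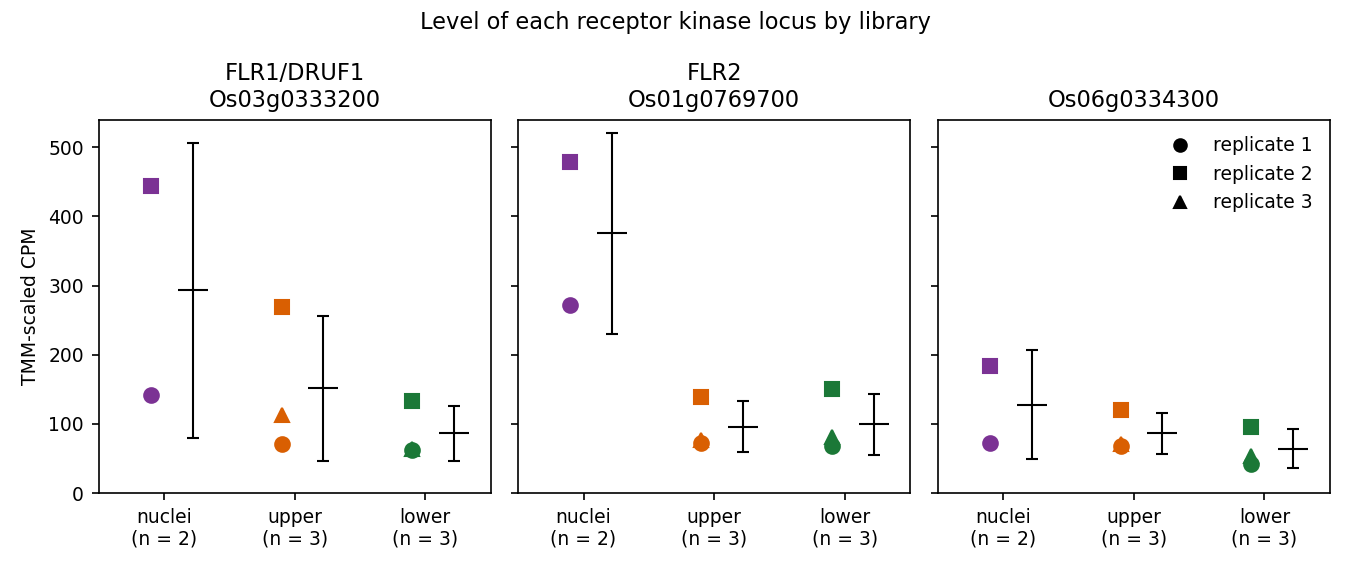
TMM-scaled CPM of the 3 loci in each library (symbols: replicate number; bars beside them: mean ± SD; n = 2 for nuclei and 3 for each part). FLR2 is the locus whose nuclei libraries, at 272 and 479 CPM, both sit above all whole-cell libraries, and replicate 2 is the highest library of every group.

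Replicate 2 was the highest library for all 3 loci, in nuclei as in either part. Across the 29848 loci tested between the parts, 28.7% had replicate 2 highest in both parts, so within the parts this is a common pattern. That share does not cover nuclei, and the share of loci with the pattern in nuclei as well was not counted. Within nuclei, replicate 2 exceeded replicate 1 by 3.12 times for FLR1, 1.76 times for FLR2 and 2.56 times for Os06g0334300.

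The first comparison asked which transcripts differ between the upper and the lower part. None of the 3 receptor loci was called, where a call needs a Benjamini-Hochberg adjusted p under 0.05 over all loci tested and a log2 fold change (log2FC) of 1 or more in size. The share of loci called was 0.814% (243 of 29848, edgeR quasi-likelihood test) and 8.14% with the replicate number as a block. In the unblocked edgeR fit 0 receptor loci had an unadjusted p under 0.05. Of the 29848 loci, 2310 were higher and 1834 lower at that p. DESeq2 called 0, against 5.46% of all loci tested. FLR1 had a log2FC of 0.83 (SE 0.57, edgeR adjusted p = 0.515), Os06g0334300 one of 0.45 (SE 0.41, edgeR adjusted p = 0.616) and FLR2 one of -0.03 (SE 0.43, edgeR adjusted p = 0.978). In bulk samples, fewer cells of a type and less RNA per cell cannot be told apart, for these values and those that follow.

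Upper and lower libraries with the same replicate number deviated together across loci, so each locus was also compared within these pairs. FLR1 was higher in the upper part in every pair, by 1.16, 2.03 and 1.76 times in pairs 1, 2 and 3. Os06g0334300 was also higher in the upper part in every pair, by 1.59, 1.25 and 1.32 times. FLR2 was 1.06 times as high in the upper as in the lower part in pair 1, 0.923 times in pair 2 and 0.961 times in pair 3, which is the closest match between the parts among the 3 loci. An upper library above its lower partner in all 3 pairs was seen at 28.6% of the loci tested, so the direction alone is ordinary.

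With the replicate number as a block the standard errors shrank, and still no receptor locus was called. The blocked log2FC was 0.71 for FLR1 (SE 0.25, edgeR adjusted p = 0.117), 0.49 for Os06g0334300 (SE 0.19, edgeR adjusted p = 0.141) and -0.01 for FLR2 (SE 0.20, edgeR adjusted p = 0.979). Before adjustment the blocked edgeR p was 0.0326 for FLR1 and 0.0457 for Os06g0334300. Such a p under 0.05 was common in this fit, with 5486 loci higher and 4511 lower of 29848. With a whole pair left out the blocked value stayed between 0.52 and 0.97 for FLR1 and between 0.41 and 0.54 for Os06g0334300, and neither locus was called. Unblocked fits that leave out 1 library of a pair moved more: FLR1 had a log2FC of 0.11 without upper replicate 2 and 1.24 without lower replicate 2, and Os06g0334300 had 0.13 and 0.83.

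**Figure D2:**
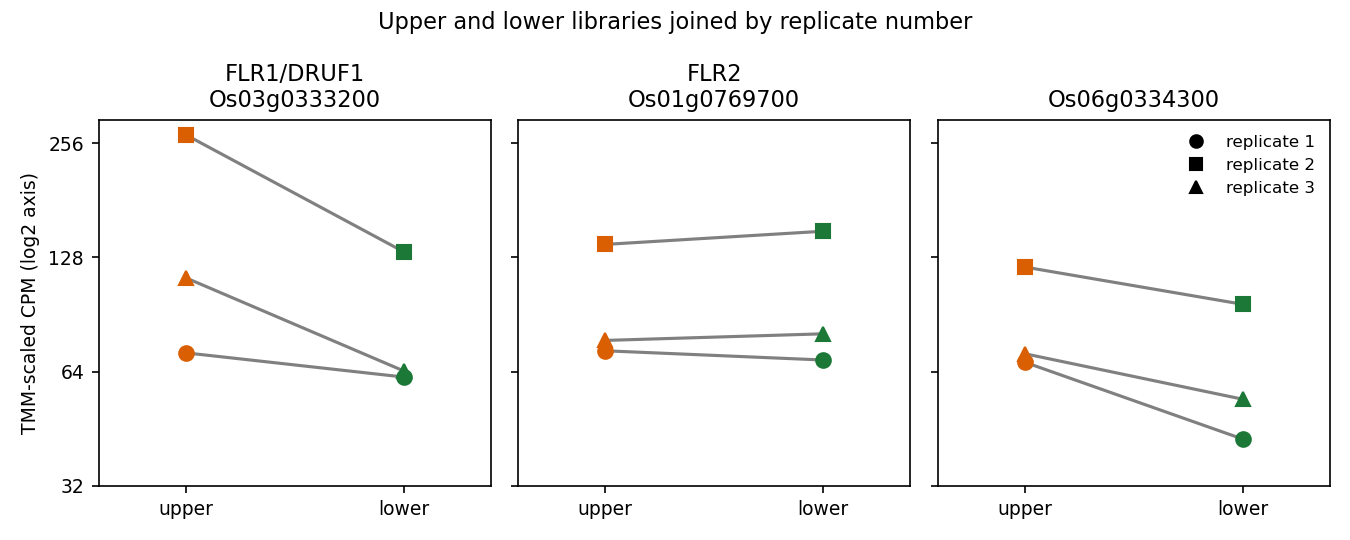
CPM on a log2 axis in the upper (left) and lower (right) library of each replicate number, joined by lines. FLR1 and Os06g0334300 are higher in the upper part in all 3 pairs, and the FLR2 lines are nearly level, between 0.923 and 1.06 times.

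The second comparison set nuclei against the mean of both parts on the log2 scale. FLR2 was called higher in nuclei, by 3.92-fold, with a log2FC of 1.97 (SE 0.45, edgeR adjusted p = 0.0135). It was 1 of the 3 receptor loci called, in a comparison where 22.9% of 31858 loci tested were called in either direction and 17.2% had both nuclei libraries above all whole-cell libraries. FLR1 had a log2FC of 1.39 (SE 0.59, edgeR adjusted p = 0.110) and Os06g0334300 one of 0.81 (SE 0.46, edgeR adjusted p = 0.223). With the replicate number as a block, which pairs the 2 parts but which nuclei share in number only, FLR1 was called as well (log2FC 1.18, edgeR adjusted p = 0.0258), in a fit that called 29.8% of all loci. Against each part alone, FLR2 was also called: the log2FC was 1.99 against the upper part (SE 0.54, edgeR adjusted p = 0.0312) and 1.94 against the lower part (SE 0.54, edgeR adjusted p = 0.0380), 2 comparisons that share the same nuclei libraries. Of the 31858 loci tested, 6342 were called against the upper part and 4949 against the lower part.

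The FLR2 call needed nuclei replicate 2. Without it the log2FC was 1.50 (edgeR adjusted p = 0.0736), with the lone nuclei library assumed to vary like the other groups, and without nuclei replicate 1 it was 2.31 (edgeR adjusted p = 0.0332). Without any single whole-cell library it stayed between 1.77 and 2.15 and was called each time. FLR1 and Os06g0334300 had log2FC values of 0.34 and -0.03 without nuclei replicate 2, and 1.98 and 1.33 without nuclei replicate 1. FLR1 passed the call without upper replicate 2, its highest whole-cell library (log2FC 1.74, edgeR adjusted p = 0.0491), in a fit that called 6392 of 31750 loci.

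**Figure D3:**
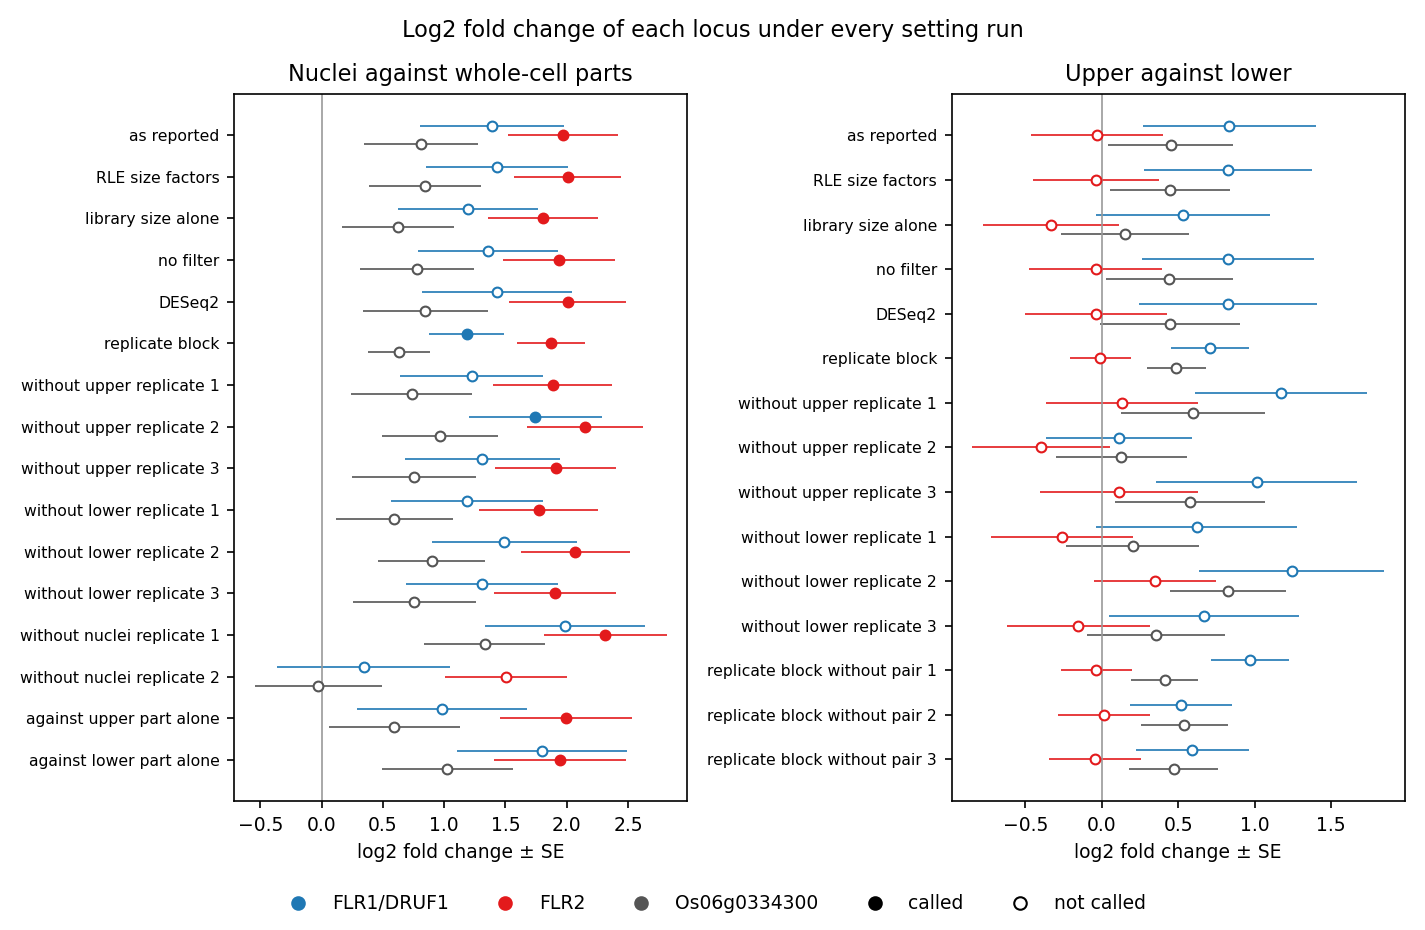
Log2FC ± SE of each locus under every setting run, nuclei against whole cells on the left and upper against lower on the right (filled: called; open: not called). FLR2 stays between 1.50 and 2.31 on the left and near or on either side of 0 on the right, and FLR1 and Os06g0334300 drop to 0.34 and -0.03 on the left without nuclei replicate 2.

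Because library scaling cancels in a ratio of counts taken within a library, the balance between the receptors was compared in that form. The values are log2 ratios with 0.5 count added to each locus, and only their change between groups is read, since the loci may differ in length. The ratio of Os06g0334300 to FLR2 was -1.92 and -1.38 in nuclei, -0.10, -0.20 and -0.12 in upper replicates 1 to 3, and -0.69, -0.64 and -0.57 in lower replicates 1 to 3. Each group therefore kept to a range of its own, nuclei lowest and upper highest, although within a part the highest level of either locus was 1.78 to 2.27 times its lowest. The share of other loci whose ratio to FLR2 forms 3 separate ranges was not counted. Shares for 2 groups at a time are given below.

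Between the parts the mean ratio of Os06g0334300 to FLR2 was -0.14 ± 0.05 in the upper and -0.64 ± 0.06 in the lower part (SD, n = 3 each). The difference of 0.50 gave p = 0.10 in an exact two-sided permutation test, the smallest that 3 against 3 libraries allow (Benjamini-Hochberg adjusted p = 0.161 over 6 tests). It was positive in all 3 replicate pairs, where the exact sign-flip test cannot go below p = 0.25. Among all other loci tested, 13.1% had a ratio to FLR2 without overlap between the parts. Leaving out any single library moved the difference only between 0.47 and 0.53.

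The ratio of FLR1 to FLR2 also separated the parts, with -0.02, 0.96 and 0.55 in upper replicates 1 to 3 and -0.15, -0.18 and -0.32 in lower replicates 1 to 3. The lower libraries lay close together (mean -0.22 ± 0.09, SD, n = 3), whereas the upper libraries were spread (mean 0.50 ± 0.49, SD, n = 3). The difference of 0.71 gave the same smallest exact permutation p of 0.10 (adjusted p = 0.161). Without upper replicate 1 it was 0.97 and without upper replicate 2 it was 0.48. The ratio of Os06g0334300 to FLR1 was -0.08, -1.16 and -0.67 in the upper and -0.54, -0.46 and -0.25 in the lower libraries, which overlapped (difference -0.22, exact permutation p = 0.60, adjusted p = 0.60). As background for ratios to FLR1, 18.2% of the other loci tested separated the parts.

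Nuclei had less Os06g0334300 relative to FLR2 than whole cells, with a mean log2 ratio of -1.65 ± 0.38 (SD, n = 2) against -0.39 ± 0.28 (SD, n = 6). Both nuclei libraries lay below all 6 whole-cell libraries, and the difference of -1.26 gave an exact two-sided permutation p = 0.0357, the smallest that 28 splits allow; after adjustment over the 6 tests p was 0.161. A ratio to FLR2 without overlap between nuclei and whole cells was found at 59.8% of the other loci tested, so such a separation was common for ratios to FLR2. The FLR1 to FLR2 ratio was -0.94 and -0.11 in nuclei, the first below and the second inside the whole-cell range from -0.32 to 0.96 (difference -0.66, exact permutation p = 0.214, adjusted p = 0.257). The Os06g0334300 to FLR1 ratio was -0.98 and -1.27 in nuclei and overlapped the whole-cell libraries (difference -0.60, exact permutation p = 0.107, adjusted p = 0.161), where 30.5% of the other loci tested had a ratio to FLR1 without overlap.

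**Figure D4:**
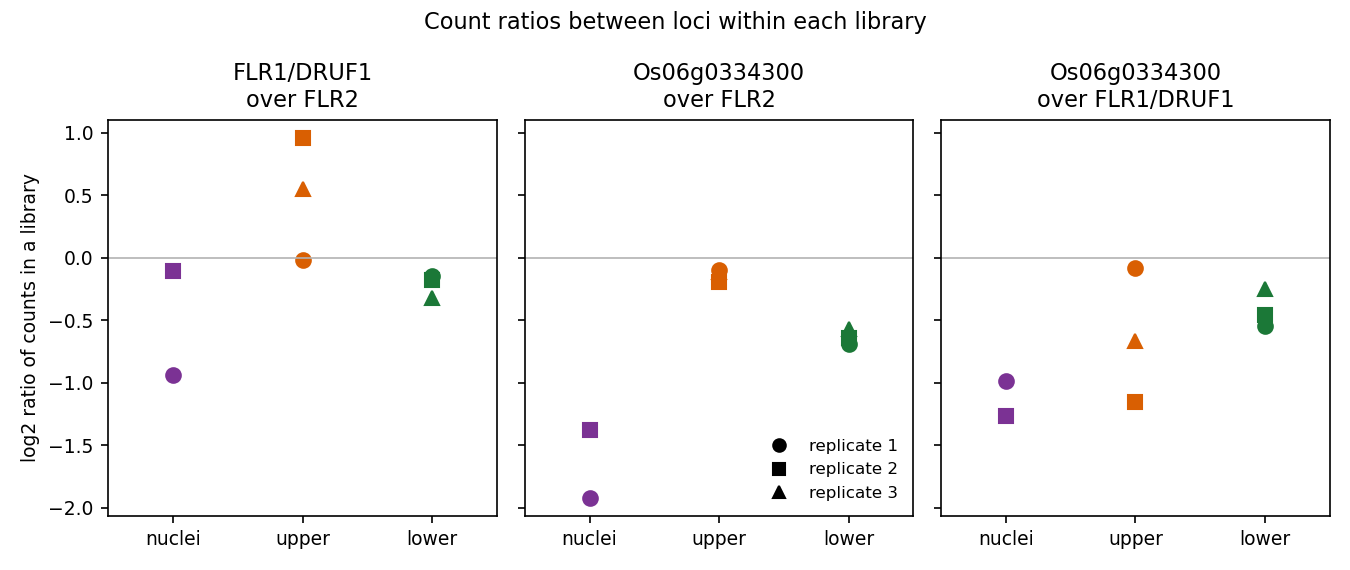
Log2 ratio of the counts of 2 loci within each library, with replicate numbers as symbols. The ratio of Os06g0334300 to FLR2 (middle) forms 3 ranges, with nuclei at -1.92 and -1.38, upper libraries from -0.20 to -0.10 and lower libraries from -0.69 to -0.57. How many other loci form 3 such ranges was not counted.

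The name RUPO stands for a pollen tube kinase, so the loci were set beside the summed pollen markers. In every replicate pair the pollen sum was higher in the upper library, as were Os06g0334300 and FLR1, and FLR2 only in pair 1. The pollen sums were 134 against 3.71, 151 against 27.8 and 466 against 241 CPM in pairs 1, 2 and 3. Os06g0334300 was 1.59, 1.25 and 1.32 times as high in the upper part in the same pairs. Between lower replicates 3 and 1 the pollen sum differed 64.9-fold (241 and 3.71 CPM), and Os06g0334300 differed 1.27-fold (54.1 and 42.5 CPM). FLR1 and FLR2 differed 1.04-fold and 1.17-fold between the same libraries. The highest Os06g0334300 level, 184 CPM in nuclei replicate 2, stood beside a pollen sum of 13.0 CPM, and the highest pollen sum, 466 CPM in upper replicate 3, stood beside 71.3 CPM. The source of the transcript at this locus was not tested, and nuclei libraries also differ from the parts in kit and compartment. Whether the identifier and the name RUPO belong together could not be checked in the files used here, so the locus is called by its identifier and its values are not read as those of RUPO. Pollen marker levels also differed between the groups compared, and the part of pollen in the receptor values was not tested. Without lower replicate 3, the lower library with the most of them, the upper against lower log2FC values were 0.67 for FLR1, -0.15 for FLR2 and 0.35 for Os06g0334300. That fit keeps lower pollen sums of 3.71 and 27.8 CPM, so the pollen difference between the parts is larger in it. It therefore cannot show what pollen adds.

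**Figure D5:**
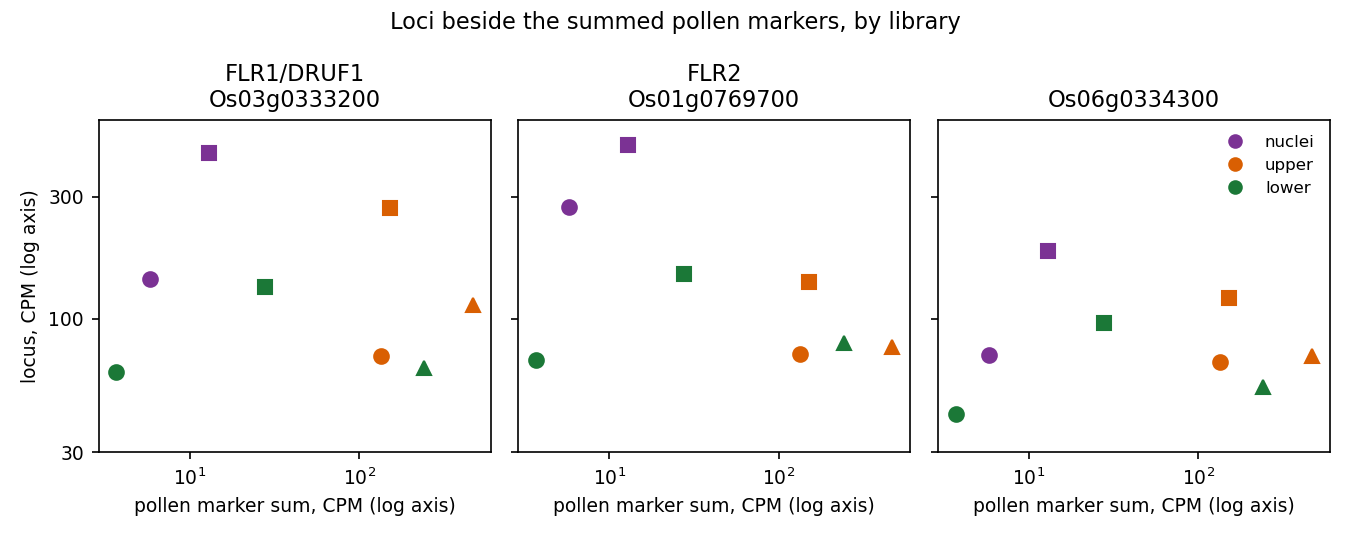
Level of each locus against the summed level of 5 pollen markers in the same library, both in CPM on log axes (colour: group; circle, square and triangle: replicates 1, 2 and 3). The pollen sum runs from 3.71 to 466 CPM, and the highest level of each locus, in nuclei replicate 2, lies at a pollen sum of 13.0 CPM.

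Lists of the partners known from FERONIA signalling were compiled from general knowledge, since the files do not name these loci. Of 7 Rac/Rop GTPase loci, molecular switches below FERONIA in Arabidopsis, edgeR called 0 between the parts (1 higher in the upper part at an unadjusted p under 0.05, with DESeq2 and with the replicate block). The median log2FC of the list was -0.12, beside -0.02 over all loci tested. In nuclei 1 was called higher and 0 lower, beside 22.9% of all loci called (by DESeq2 1 and 1, beside 30.3%), with a median of -0.28 beside -0.03 over all loci. The locus called, Os01g0229400, had 30.6 and 40.8 CPM in nuclei, against 17.9 ± 4.90 CPM over the whole-cell libraries (SD, n = 6), and a log2FC of 1.05 (edgeR adjusted p = 0.0489). That call was lost whenever any single library was left out, with log2FC values from 0.81 to 1.23. It was also lost with the block (log2FC 0.87), with library size alone (0.88), with no filter (1.02) and against the lower part alone (0.81). DESeq2, 1 other scaling and the fit against the upper part alone (1.28) kept it.

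Of 9 NADPH oxidase (Rboh) loci, the enzymes that release reactive oxygen at the plasma membrane, 1 was called higher in the upper part and 0 lower, beside 0.814% of all loci tested, and DESeq2 and the blocked fit gave the same numbers for the list. This locus, Os01g0360200, had 124, 204 and 103 CPM in the upper libraries, against 22.2, 18.5 and 22.2 CPM in the lower libraries. Every upper library was more than 4 times above every lower library, and the log2FC was 2.80 (SE 0.36, edgeR adjusted p = 0.0248; with the block 2.74, adjusted p = 0.0142). The edgeR call was lost without upper replicate 1 or 3 or without lower replicate 1 or 2, with log2FC values from 2.67 to 2.99 in those fits. With the block it was lost without pair 2 (log2FC 2.35) and kept without pair 1 or pair 3. The median of the list was 0.47.

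In nuclei 3 of the 9 Rboh loci were called higher and 1 lower, where 22.9% of all loci tested were called in either direction. The list median was -0.16. Os11g0537400 had 144 CPM in nuclei replicate 1 and 68.1 CPM in nuclei replicate 2, against 13.4 ± 5.35 CPM over the whole-cell libraries (SD, n = 6; log2FC 3.06, edgeR adjusted p = 0.000693). Os09g0438000 had 58.1 and 54.0 CPM in nuclei against 13.4 ± 2.86 CPM (SD, n = 6; log2FC 2.10, edgeR adjusted p = 0.00165). Os08g0453700 was weakly expressed, with 8.78 and 9.77 CPM in nuclei against 3.75 ± 0.887 CPM (SD, n = 6; log2FC 1.35, edgeR adjusted p = 0.0352), and among the fits with a library left out it kept its call only without lower replicate 3 (log2FC from 1.18 to 1.48 over these fits).

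Os05g0465800, the Rboh locus called lower, had 1.97 and 0.989 CPM in nuclei against 53.4 ± 37.2 CPM over the whole-cell libraries (SD, n = 6; log2FC -5.03, edgeR adjusted p = 0.00862). Upper libraries had 59.8, 50.8 and 105 CPM and lower libraries 10.2, 13.4 and 81.4 CPM, so the lower library high in pollen markers was also the one high in this locus. The part of pollen in this difference was not tested. The call was lost without either nuclei library, with a log2FC of -5.63 without replicate 1 (edgeR adjusted p = 0.0790) and -4.65 without replicate 2 (edgeR adjusted p = 0.0662).

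Of the 3 S-adenosylmethionine synthetase loci, whose Arabidopsis counterparts bind FERONIA, edgeR and DESeq2 called 0 in either comparison, and 0 had an unadjusted p under 0.05. Their median log2FC values were 0.26 between the parts and -0.32 in nuclei. Of 3 HAK potassium transporter loci, the kind of protein that RUPO is known to contact, 2 were measured. By edgeR 0 were called between the parts (1 higher at an unadjusted p under 0.05 and 1 higher with the block; DESeq2 called 0), with log2FC values of 1.23 and 1.55. In nuclei 0 were called by edgeR, 0 had an unadjusted p under 0.05, and DESeq2 called 1 lower. The pollen markers had a median log2FC of 1.44 between the parts, with 0 called by edgeR and DESeq2 and 0 at an unadjusted p under 0.05. Their sum was higher in the upper library of every pair, and the number called depended on the libraries. It was 2 without lower replicate 3, in a fit that called 958 of 30456 loci. With the block it was 0. Without pair 1 the blocked fit called 3 pollen markers, beside 3549 of 30228 loci. Without pair 2 it called 0, beside 98 of 30181, and without pair 3 it called 5, beside 2933 of 30038. In nuclei their median was -4.19, with 2 called lower by edgeR and 5 by DESeq2. Of the carpel and ovule markers edgeR called 0 in either comparison (at an unadjusted p under 0.05, 1 was higher and 1 lower between the parts and 0 and 2 in nuclei; DESeq2 called 1 higher between the parts and 1 lower in nuclei), with medians of 0.46 and -0.14. Over all loci tested between the parts, edgeR called 0.814%, DESeq2 5.46% and the blocked fit 8.14%. In nuclei the shares were 22.9% by edgeR and 30.3% by DESeq2. At an unadjusted edgeR p under 0.05, 2310 of 29848 loci were higher and 1834 lower between the parts. For nuclei 6635 of 31858 loci were higher and 5621 lower at that p.

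The loci most like each receptor were found by Pearson's r of log2(CPM + 0.5) among loci with a mean of at least 10 CPM. These values describe the libraries, which share replicate numbers and differ in depth, and at 6 or 8 points many loci reach a high r. Over the 8 libraries and 17798 loci, FLR1 was followed most closely by Os02g0779200 (r = 0.998) and Os06g0301000 (r = 0.988). FLR2 was followed by Os07g0240400 (r = 0.997) and Os10g0178200 (r = 0.991), and Os06g0334300 by Os07g0205000 (r = 0.991) and Os06g0111800 (r = 0.990). Over the 6 whole-cell libraries and 17528 loci the closest were Os01g0905200 and Os02g0779200 for FLR1 (r = 0.997 and 0.996), Os10g0321700 and Os11g0571900 for FLR2 (r = 0.998 and 0.997), and Os11g0547800 and Os03g0264300 for Os06g0334300 (r = 0.998 and 0.997). Os02g0779200 was among the closest loci to FLR1 in both sets of libraries, but the 6 are part of the 8, so the sets are not independent.

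The loci above were picked as the highest r of all, so a lower r among the receptors follows from that choice. Over the 8 libraries r was 0.954 between FLR1 and Os06g0334300, 0.844 between FLR1 and FLR2 and 0.787 between Os06g0334300 and FLR2. Over the 6 whole-cell libraries the same 3 values were 0.928, 0.821 and 0.871. In likeness to FLR1, Os06g0334300 ranked 33 and FLR2 ranked 487 of 17798 loci over the 8 libraries, and they ranked 390 and 1704 of 17528 loci over the 6. In likeness to Os06g0334300, FLR1 ranked 16 and FLR2 ranked 692 over the 8 libraries, and 433 and 1087 over the 6. To FLR2, FLR1 ranked 1065 and Os06g0334300 ranked 1620 over the 8 libraries, and 2444 and 1726 over the 6.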

How the data were processed

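The authors deposited 1 table of raw counts per feature and library, with no normalization; the submitters' processing notes name STAR, featureCounts, DESeq2 and the build IRGSP-1.0. Versions, the strand setting and the treatment of reads matching several places are not given in the sources used here, so reads shared with related kinase genes may be split in an unknown way. Column names matched the sample titles for all 8 libraries. The reference gene table, of another assembly, names none of these loci and was not used.

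The counts were tested with edgeR 4.0.16 (quasi-likelihood, TMM scaling, edgeR's low-count filter) in R 4.3.3, with Benjamini-Hochberg adjustment over all loci tested. The fits were also run on simulated counts, which had the same spread setting for all loci and no replicate or kit effect. That run was required to recover log2FC values only, so it does not vouch for the calls. Upper against lower used 6 libraries, nuclei against the mean of the parts all 8. Printed CPM use TMM over 8 libraries. Alternatives were DESeq2 1.42.0, other scalings, no filter, a replicate block and leaving out each library. Deviations of upper and lower libraries with the same number, as the labels give it, correlated at 0.362, 0.679 and 0.660 (unlike numbers at most 0.054), so these were taken as pairs.

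The loci, lists and tests were chosen with earlier results of these data known. The text names the 3 receptors, loci of the FERONIA signalling lists that the unblocked edgeR fits called, and the 2 loci most correlated with each receptor. Loci of the marker lists are not named, whether called or not. Counts of loci with replicate 2 highest, of pairs in 1 direction and of ratios without overlap were added after the data were seen.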

Additional observations from a re-analysis of the deposited data

Results flagged for a closer look

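FLR1 (Os03g0333200) in upper replicate 2 was flagged among the whole-cell libraries on the CPM scale, and its levels were not examined this way on the log2 scale. It had 270 CPM there, and the gap to the next library, lower replicate 2 with 133 CPM, was 0.660 of the range over the 6 libraries, above the 95% limit of Dixon's test at this size. The 6 libraries hold 2 parts, and chance alone marks about 1 in 20 such groups; 6 quantities were looked at.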

How the results depend on the processing

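The number of loci called between the parts varied widely: 243 as reported, 1629 with DESeq2, 2431 with the replicate block, and 3549, 98 and 2933 with the block and pair 1, 2 or 3 left out. Leaving out single libraries gave 0 (without lower replicate 1; by unadjusted edgeR p under 0.05, 1589 higher and 842 lower) to 958 called loci, and 2378 to 6889 for nuclei against the parts, where the cause was not tested. No receptor locus was called between the parts in any setting. The direction of FLR2 between the parts was not stable, from -0.40 to 0.35 without single libraries and 0.015 with the block and without pair 2. For nuclei against the parts, without single libraries, FLR2 ran from 1.50 to 2.31, FLR1 from 0.34 to 1.98 and Os06g0334300 from -0.026 to 1.33. FLR1 was called in nuclei with the replicate block (1.18, adjusted p = 0.0258), where nuclei share only a number with the other libraries: across loci, replicate 2 minus replicate 1 in nuclei correlated at 0.082 with the upper and 0.380 with the lower part. For the log2 ratios, nuclei minus whole cells, FLR1 to FLR2 ran from -1.08 to -0.25, Os06g0334300 to FLR2 from -1.53 to -0.99 and Os06g0334300 to FLR1 from -0.74 to -0.46 without single libraries. Between the parts the Os06g0334300 to FLR1 ratio ran from -0.49 to 0.044. Scaling by library size alone shifted the median log2FC over all loci to -0.34 between the parts and -0.17 in nuclei. Relative to that median, the upper against lower values were 0.87 for FLR1, 0.01 for FLR2 and 0.49 for Os06g0334300. The block changed no other call of a receptor locus.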
